A study of Homo sapiens with 3 samples.

Results

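The genes described here are 4 markers of proliferation, MKI67, ASPM, E2F1 and PCNA, and 4 nuclear DNA topoisomerases, TOP1, TOP2A, TOP2B and TOP3A. They were taken by name, and all 8 were found among the 17201 genes of the deposited table. The table comes from PAR-CLIP of CTCF, the zinc-finger protein that anchors chromatin loops, in U2OS, a cell line from a human osteosarcoma. All cells received the nucleoside 4-thiouridine at 400 µM for 16 to 24 h and ultraviolet light of 365 nm at 400 mJ/cm2, which joins labelled RNA to the proteins it touches. RNA still attached to CTCF from nuclear lysate was then sequenced. The only values analysed here are whole-number counts per gene interval in the merge of 2 biological replicates, made with different lots of 1 antibody against CTCF. There is 1 condition and no replicate value, so every interval below covers counting error only and no p-value (0) was computed. An input, a control precipitation and RNA abundance were not analysed here, so more of a gene's RNA in the nucleus and more of it held by CTCF cannot be told apart.

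Proliferation markers are genes whose RNA and protein are abundant in dividing cells and scarce in resting ones. Ki-67, the product of MKI67, coats mitotic chromosomes, ASPM acts at spindle poles, PCNA is the sliding clamp of replicating DNA polymerases, and E2F1 is a transcription factor that turns on genes for DNA synthesis. Topoisomerases release the twist that builds up when DNA is copied, transcribed or folded. TOP1 and the TOP3 enzymes cut a single strand, whereas TOP2A and TOP2B cut both strands and pass another duplex through the gap. TOP2A is made mainly in dividing cells, TOP2B is made in dividing and resting cells alike, and TOP2B is found at chromatin loop anchors together with CTCF and cohesin.

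RNA of most of these genes was recovered with CTCF at counts above those of the typical listed gene, and MKI67 stood far above the rest. The 8 genes had between 18 and 1545 counts with a median of 162.5, against a median of 31 over all 17201 listed genes and 43 over 12220 protein-coding genes. Of the 8, 7 lay above the median of all listed genes, TOP3A by a single count, and E2F1 lay below it. Counts of 100 or more were found for 4 of the 8, whereas 20.5% of all listed genes and 26.1% of listed protein-coding genes reached that size. At 50 counts or more the number was 6 of 8, against 37.3% of all listed genes, and at 200 or more it was 4 of 8, against 8.94%. Together the 8 genes held 2775 counts, or 0.210% of the 1322047 counts in the table. Without MKI67 the ratio of the members' median to that of all listed genes was 3.10 in place of 5.24. Over the 5 members with a nearly full interval it was 9.19, still against all listed genes, whatever share of the gene their interval covers. Over the 6 members that overlap no other listed gene it was 3.02, there against listed genes that likewise overlap no other.

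**Figure D1:**
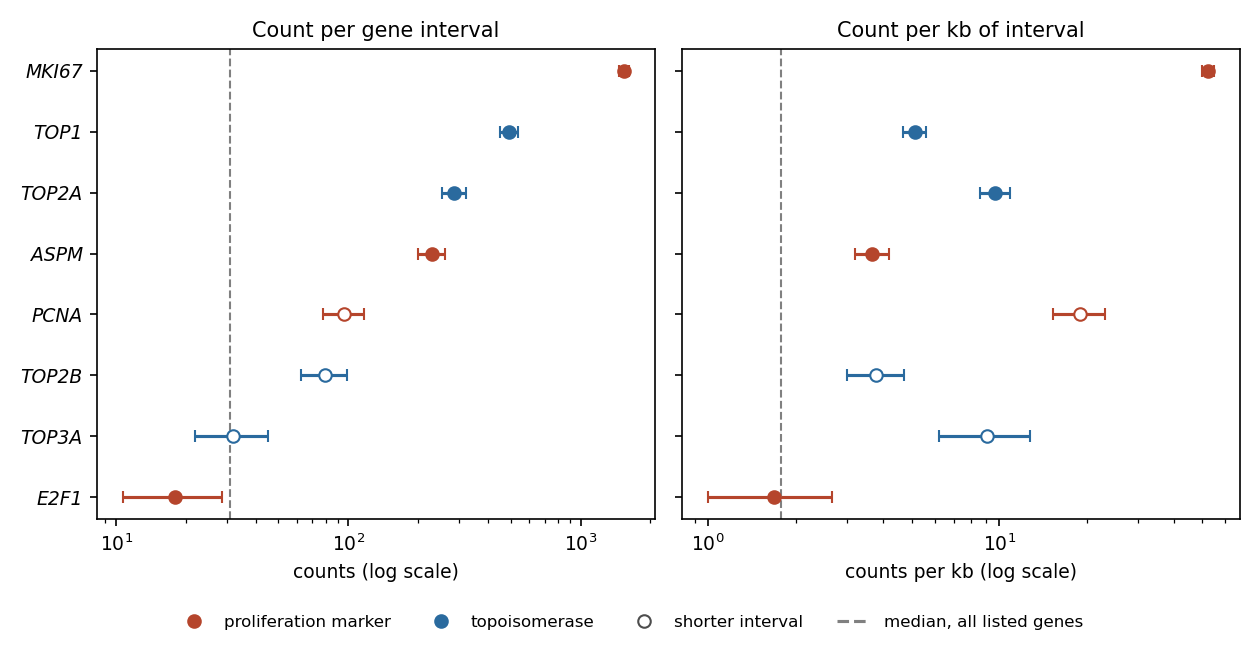
Counts (left) and counts per kb of the listed interval (right) for the 8 genes, both on log axes, with 95% Poisson intervals as bars. Open points mark the 3 genes whose interval is under 80% of the gene's RefSeq length, and the dashed line is the median over all listed genes, 31 counts or 1.78 counts per kb. MKI67 is highest on both scales and E2F1 lowest, at 18 counts and 1.68 counts per kb.

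The interval over which a gene was counted differed greatly between members, and so did how much of the gene it covered. It was 95.7 kb for TOP1 and 62.6 kb for ASPM but 5.07 kb for PCNA and 3.53 kb for TOP3A. For PCNA, TOP2B and TOP3A the interval was shorter than 80% of the length that RefSeq gives the gene in GRCh38.p14, so their counts describe a stretch of the gene. For the other 5 it was at least 80% of that length. The members are therefore given both as counts and as counts per kb of interval. Counts rose less than in proportion to length, so the level per kb runs high in short intervals. Among listed genes of 3.35 to 4.08 kb the median was 17 counts, and among those of 87.7 to 98.7 kb it was 79. A percentile for length places each count among 344 genes of similar interval length, after division of the table into 50 equal groups by length.

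MKI67 lies on chromosome 10 (129894923 to 129924468, hg19) and had 1545 counts, with a 95% Poisson interval of 1469 to 1624. It ranked 19th among protein-coding genes by count and 62nd by count per kb, at 52.3 counts per kb (49.7 to 55.0). Within its length group, 28.7 to 30.9 kb, it had the highest count, 37.2 times the group's median of 41.5. FLNC, which encodes the actin crosslinker filamin C, came next in that group with 1262 counts, followed by BLTP2 with 743 and the cohesin gene RAD21 with 488. No other listed gene overlapped MKI67 (0), whereas FLNC and BLTP2 each overlap another. In the order of protein-coding genes by count it stood between ERBIN, a scaffold protein gene with 1549 counts over 156 kb, and PRKDC, which encodes the DNA-dependent protein kinase, with 1541 counts over 187 kb. Both of these intervals are much longer than that of MKI67.

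PCNA had 96 counts (77.8 to 117) over its short interval on chromosome 20 (5095599 to 5100672). This came to 18.9 counts per kb (15.3 to 23.1), the second highest level per kb among the members, and lay at percentile 94.6 for length. ASPM had 229 counts (200.3 to 261) on chromosome 1 (197053258 to 197115824), or 3.66 per kb (3.20 to 4.17), at percentile 89.4 for length. Its interval contains a listed pseudogene, SEPTIN14P12, with 14 counts, so at least 215 of the ASPM counts are not shared with that pseudogene. E2F1 had 18 counts (10.7 to 28.4) on chromosome 20 (32263489 to 32274210), or 1.68 per kb (0.995 to 2.65). With a percentile of 44.0 for length it was the only one of the 8 below the 50th, and 7 of 8 lay above it, as do by construction 50% of all listed genes. Its counting interval reached from percentile 26.2 to 57.3.

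Among the topoisomerases, TOP1 and TOP2A had more counts than TOP2B and TOP3A, also where TOP1 is set at the 301 counts not shared with an overlapping gene. TOP1, the main enzyme that relaxes DNA ahead of RNA polymerase, had 491 counts (449 to 536) on chromosome 20 (39657458 to 39753127), of which up to 190 may be shared with an overlapping antisense gene and at least 301 are not. As counted, that was 5.13 counts per kb (4.69 to 5.61) and percentile 96.9 for length. TOP2A, which untangles chromosomes before they separate in mitosis, had 285 counts (253 to 320) on chromosome 17 (38544768 to 38574202), or 9.68 per kb (8.59 to 10.9), at percentile 97.1. TOP2B had 79 counts (62.5 to 98.5) on chromosome 3 (25639475 to 25660340), or 3.79 per kb (3.00 to 4.72), at percentile 81.7. TOP3A, which with the BLM helicase takes apart crossed DNA strands, had 32 counts (21.9 to 45.2) on chromosome 17 (18174742 to 18178272), or 9.07 per kb (6.20 to 12.8), at percentile 74.3.

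The order of the 8 genes depended on the scale. By count it was MKI67, TOP1, TOP2A, ASPM, PCNA, TOP2B, TOP3A and E2F1. With TOP1 at 301 counts, its ratio to TOP2A was 1.06 (0.895 to 1.25) and the order of these genes was not resolved. The intervals of the ratios between neighbours in that order included 1 for PCNA over TOP2B, at 1.22 (0.893 to 1.66), and for TOP3A over E2F1, at 1.78 (0.968 to 3.36). By count per kb the order was MKI67, PCNA, TOP2A, TOP3A, TOP1, TOP2B, ASPM and E2F1. On that scale TOP2A over TOP3A, at 1.07 (0.740 to 1.59), and TOP2B over ASPM, at 1.03 (0.791 to 1.34), could not be told apart within counting error. With TOP1 at 301 counts over the 69.5 kb that do not overlap the antisense gene, its level was 4.33 per kb. TOP2B was at 3.79 (3.00 to 4.72), and an interval for that ratio was not computed. MKI67 came first and E2F1 last on both scales. TOP3A stood above TOP1 per kb, but against the median count of its length group it was at 1.88 times and TOP1 at 6.22 times.

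**Figure D2:**
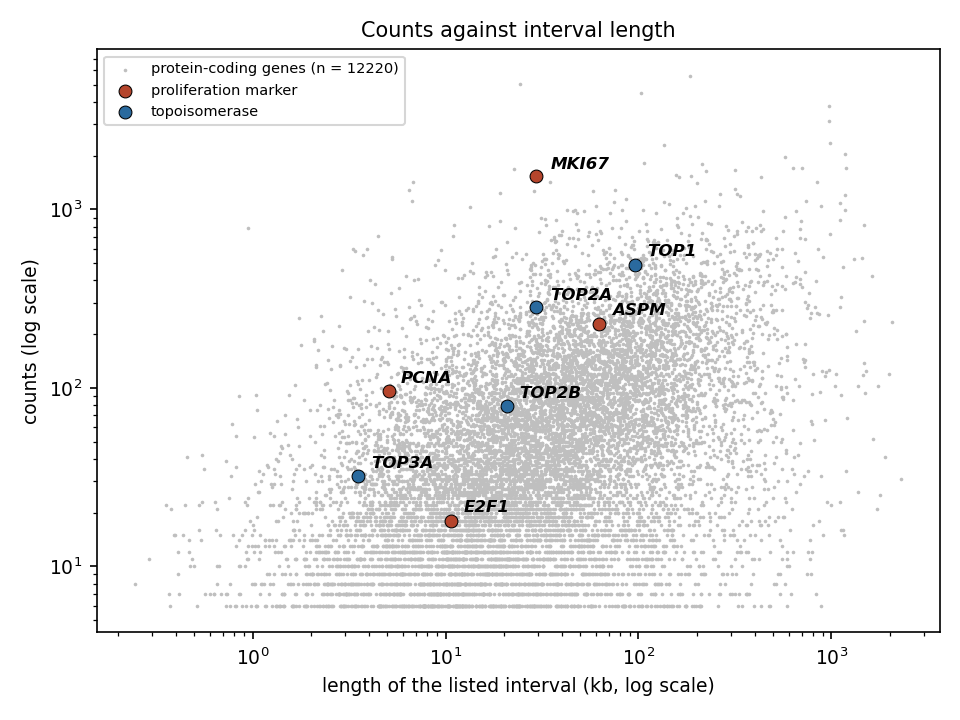
Counts against the length of the listed interval, both on log axes, for 12220 protein-coding genes (grey), the 4 proliferation markers (red) and the 4 topoisomerases (blue). MKI67 and TOP2A have intervals of almost the same length, 29.5 and 29.4 kb, and counts of 1545 and 285, while E2F1 lies within the dense part of the cloud at 18 counts.

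TOP2A had 3.61 times the counts of TOP2B (95% interval 2.80 to 4.69), 285 against 79. Per kb of interval the ratio was 2.56 (1.99 to 3.32), 9.68 in TOP2A against 3.79 in TOP2B, and it covers only the listed stretch of TOP2B. MKI67 and TOP2A, whose intervals fall in the same length group, differed by 5.42 times in count (4.77 to 6.17). Of the topoisomerase genes outside the members, TOP3B, whose product also acts on RNA, had 121 counts over 25.8 kb. TOP3A had 0.264 times the counts of TOP3B (0.173 to 0.393) but 1.93 times the level per kb (1.27 to 2.88), so which of the TOP3 genes was higher turned with the scale. The TOP3A interval, 3.53 kb, covers only a stretch of its gene and that of TOP3B is nearly full, so neither ratio compares whole genes. TOP1MT, the mitochondrial type I enzyme, had 20 counts over 11.4 kb, or 1.75 per kb. TOP1 had 2.93 times its level per kb (1.88 to 4.84), where the TOP1MT interval again covers only a stretch of the gene. The meiotic gene SPO11 was not in the table, which lists genes from 6 counts upward, and TOP6BL was not matched to an identifier.

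The promoters of 4 members are shown with promoter elements of the cell cycle marked. These elements are not separate from the choice of genes, part of which were taken as proliferation markers, and they were chosen after the sequences had been displayed. The counts fall in gene intervals and none was made on these windows. RefSeq gives 10 start sites for the 8 genes in GRCh38.p14, and each sequence runs from 250 bases before to 50 bases after a start, 5′ to 3′ on the gene's strand. Capitals mark TTTGAA, the CHR element of genes expressed late in the cell cycle, CCAAT, the CCAAT box, and TTTGGCGC or TTTCCCGC, forms of the E2F site, read on both strands. The windows are chr10:128126374-128126673 (minus strand) for MKI67, chr20:33686336-33686635 (minus) for E2F1, chr17:40417847-40418146 (minus) for TOP2A and chr3:25664858-25665157 (minus) for the upstream start of TOP2B.
MKI67: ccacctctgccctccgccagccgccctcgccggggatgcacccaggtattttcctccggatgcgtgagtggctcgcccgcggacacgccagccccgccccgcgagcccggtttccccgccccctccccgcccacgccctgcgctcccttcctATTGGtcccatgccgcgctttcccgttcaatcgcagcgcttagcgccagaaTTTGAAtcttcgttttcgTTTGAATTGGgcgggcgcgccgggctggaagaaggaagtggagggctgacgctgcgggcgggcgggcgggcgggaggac
E2F1: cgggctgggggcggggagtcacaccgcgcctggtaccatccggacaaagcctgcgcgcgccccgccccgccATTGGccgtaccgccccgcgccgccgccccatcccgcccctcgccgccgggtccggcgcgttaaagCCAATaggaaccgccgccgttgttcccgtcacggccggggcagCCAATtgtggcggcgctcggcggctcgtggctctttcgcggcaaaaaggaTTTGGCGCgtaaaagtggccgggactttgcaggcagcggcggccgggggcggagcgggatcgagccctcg
TOP2A: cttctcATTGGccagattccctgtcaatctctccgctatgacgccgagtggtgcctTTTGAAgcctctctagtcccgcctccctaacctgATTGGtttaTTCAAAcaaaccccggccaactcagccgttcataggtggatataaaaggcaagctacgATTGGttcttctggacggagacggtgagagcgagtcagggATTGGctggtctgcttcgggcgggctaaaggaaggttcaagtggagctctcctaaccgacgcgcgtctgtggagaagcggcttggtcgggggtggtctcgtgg
TOP2B: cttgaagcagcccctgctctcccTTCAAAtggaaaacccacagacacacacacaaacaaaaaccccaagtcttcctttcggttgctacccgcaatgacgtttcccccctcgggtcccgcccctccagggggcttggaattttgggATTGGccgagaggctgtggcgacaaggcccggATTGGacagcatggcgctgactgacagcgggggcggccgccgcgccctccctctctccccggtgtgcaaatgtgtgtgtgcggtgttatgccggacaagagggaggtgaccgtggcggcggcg

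The TOP2A window held 4 CCAAT boxes and 2 CHR elements, and that of MKI67 held 2 of each, of which 1 CCAAT box overlaps 1 CHR element. ASPM, not shown, held 4 CCAAT boxes and 1 CHR element. The E2F1 window held 3 CCAAT boxes and 1 TTTGGCGC, and 1 of the windows of PCNA held 3 CCAAT boxes and 1 TTTCCCGC. The upstream window of TOP2B held 2 CCAAT boxes and 1 CHR element, while its other window, with 80% G and C, held 0 of the 4 motifs. TOP1 and TOP3A also held 0 of them. A CCAAT box was found in 7 of the 10 windows and in 34.6% of all 35116 promoter windows. A CHR element was found in 4 of the 10 windows and in 15.2% of all windows, TTTGGCGC in 1 and in 0.652%, and TTTCCCGC in 1 and in 1.63%. PCNA and TOP2B each count with 2 windows, and the motifs were chosen after the sequences were seen, so these shares describe the windows and do not test for enrichment. A match is a run of letters in a fixed window and was not tested as a site.

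The nearest listed gene on either side of a member had a lower level per kb than the member in 15 of 16 cases, the exception being PLCG1 beside TOP1. Over all listed genes this was so in 51.6% of 34344 cases. That share was not matched for interval length, and the level per kb runs high in short intervals. PCNA, for example, has 5.07 kb against 71.1 kb in CDS2. By count CBFA2T2 (95) was above E2F1 (18), CDS2 (108) above PCNA (96) and SMCR8 (67) above TOP3A (32). All other nearest genes had fewer counts than the member. The counting interval of the ratio per kb lay above 1 in 14 of the 16, and TOP3A over SMCR8, at 1.07 (0.678 to 1.65), was within counting error. Of the second nearest genes 13 of 16 were lower. The exceptions were the pseudogene RPL32P11 near TOP2B at 17.2 counts per kb, and FLII at 29.2 and an unnamed lincRNA gene at 10.1 near TOP3A. On the lower side of TOP2A lay RARA, a retinoic acid receptor gene, with 44 counts over 39.1 kb, and beyond it CDC6, which loads the replicative helicase, with 129 counts over 15.3 kb. These were 1.12 and 8.44 counts per kb, against 9.68 in TOP2A. On the upper side SMARCE1, a chromatin remodelling subunit gene, had 111 counts over 23.5 kb. TOP2B has the related receptor gene RARB beside it, 1.53 kb away, with 11 counts over 422 kb, or 0.0261 per kb, against 3.79 in TOP2B. The next listed gene on its other side, NGLY1 for a glycan-removing enzyme, had 21 counts over 11.6 kb.

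TOP1 shares part of its interval with the antisense gene PLCG1-AS1, which had 190 counts. The overlap spans 26.2 kb, and use of strand in the counting is not stated. Up to 190 of the 491 counts may thus be counted for both genes, and at least 301 are not shared with PLCG1-AS1. PLCG1, a phospholipase gene on the far side that also overlaps PLCG1-AS1, had 342 counts, or 8.82 per kb against 5.13 in TOP1, and DHX35, a helicase gene 1989 kb away, was the nearest listed gene on the near side with 104. Beside MKI67 lay the phosphatase gene PTPRE with 69 counts over 179 kb and, 1341 kb away, the DNA repair gene MGMT with 56 over 301 kb, or 0.386 and 0.186 per kb. ASPM lay between CFHR4 with 10 counts and ZBTB41 with 110, and E2F1 between CBFA2T2 with 95 and PXMP4 with 9. PCNA lay between TMEM230 with 42 and CDS2 with 108, and TOP3A between MIEF2 with 8 and SMCR8 with 67.

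**Figure D3:**
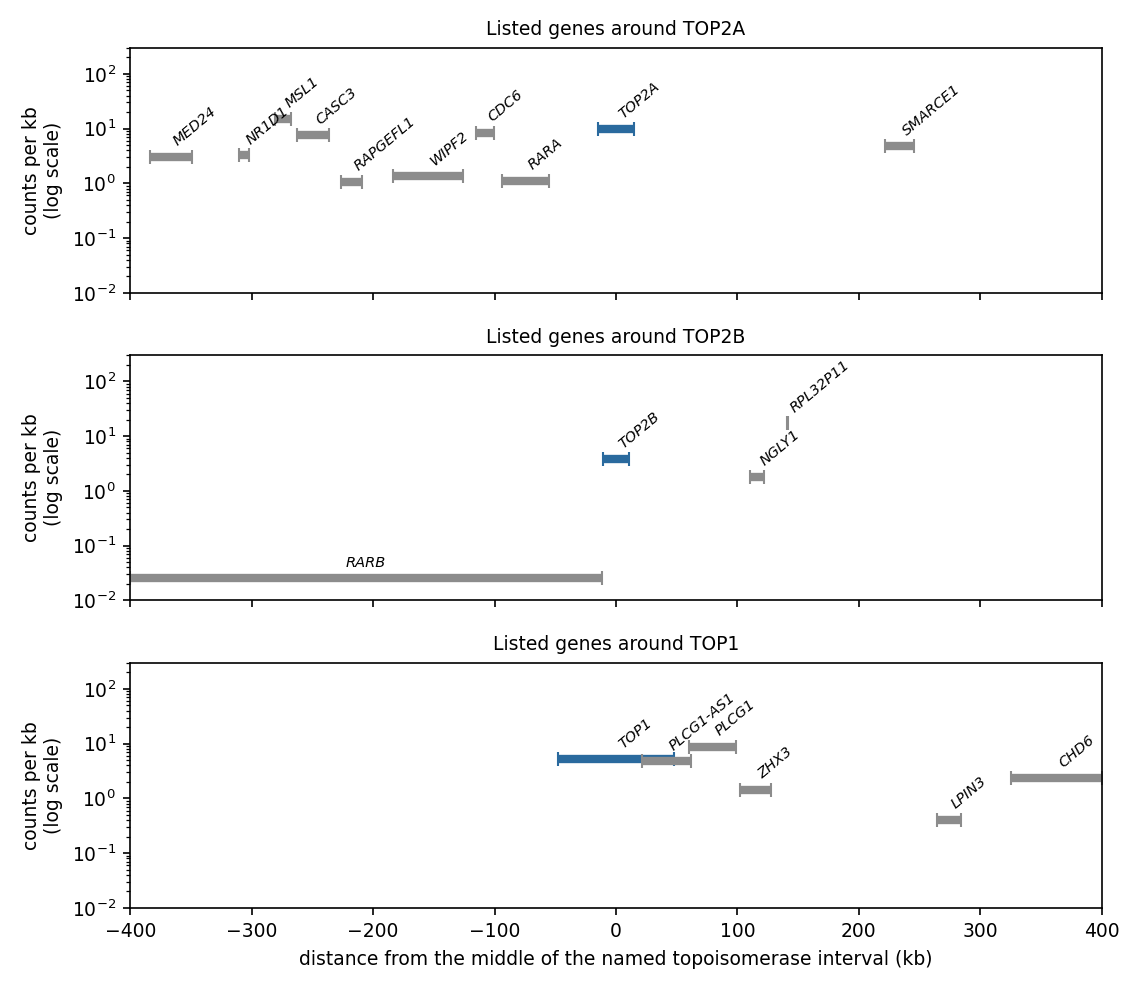
Counts per kb (log axis) of named listed genes, drawn as segments along their intervals, against distance in kb from the middle of TOP2A, TOP2B and TOP1 (blue). TOP2B stands at 3.79 counts per kb beside RARB at 0.0261, and the segment of PLCG1-AS1 overlaps that of TOP1.

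Other genes of the same processes were taken from 9 lists, and genes of mitosis were among the higher ones by level per kb, though not by median count. All 22 mitotic genes were listed, with a median of 87 counts, and 10 of them, or 45.5%, had 100 or more. Over all listed genes that share was 20.5% and over protein-coding genes 26.1%, which holds as the background for each list below. All 22 lay above the 50th percentile for their length, as do 50% of all listed genes, and the length groups also hold non-coding genes. The median level of the mitotic genes was 5.10 counts per kb, against 1.78 over all listed genes. Their median interval was 17.8 kb, against 22.8 kb. By count their median equalled that of replication licensing, below those of microcephaly genes (92), Ki-67 partners (115) and CTCF and cohesin (472). The lists hold well-studied genes, and the part of RNA abundance in their counts was not tested. The highest were ANLN, for the cytokinesis protein anillin, with 737 counts, PRC1, which bundles midzone microtubules, with 501, and TPX2, a spindle assembly factor, with 317. UBE2C, a ubiquitin-conjugating enzyme gene, was lowest at 18. Another listed gene overlaps 6 of the 22, ANLN and PRC1 among them. Genes of replication licensing were listed in 20 of 21 cases with a median of 87, or 3.33 per kb, and 8 of them had 100 counts or more. They were led by MCM3 with 458 and MCM10 with 159, ahead of CDC45 with 150, and GINS2 was lowest with 12, while GINS3 was not in the table.

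Genes that load PCNA, work with it at the fork or make DNA precursors were listed in 20 of 21 cases. Their median was 53 counts, or 2.88 per kb. At 100 counts or more there were 7 of the 20, or 35%, against 26.1% of protein-coding genes. TYMS, for thymidylate synthase, had 419 counts, the clamp loader gene RFC4 335 and the DNA ligase gene LIG1 319, and POLD4 was lowest at 7. UHRF1 was not in the table. For the genes named as absent, SPO11, RMI1, GINS3 and UHRF1, the current Ensembl identifier was looked up and not found, and an older identifier among the 681 with no symbol would be missed. TYMS, LIG1 and POLD4 overlap other listed genes. All 12 genes of the E2F and retinoblastoma family were listed, with a median of 65.5 counts and 5 at 100 or more. Per kb their median was 1.20, below that of all listed genes. The median interval of the family was 40.8 kb, against 22.8 kb over all listed genes. Of the 12 genes, 6 lay above the 50th percentile for length. E2F7, a repressor of the family, had 246 counts, TFDP1, the partner of several E2F proteins in DNA binding, 177, and E2F3 159. E2F4 had 146 counts, and RBL2 was lowest at 6. E2F1 with 18 counts stood near E2F2 with 20 and E2F5 with 12. E2F3 and E2F5 each overlap another listed gene. Per kb E2F1, at 1.68, stood near E2F3 at 1.74 and above the median of the family.

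Genes for proteins that work with the topoisomerases were listed in 6 of 7 cases, with a median of 44 counts, against 31 over all listed genes. At 100 counts or more there was 1 of the 6, a share close to the 20.5% of all listed genes. TDP1, which removes TOP1 trapped on DNA, had 165 counts and TDP2, which does so for TOP2, had 40. BLM had 50, TDRD3, the partner of TOP3B, 48, TOPBP1 13 and RMI2 9, and RMI1 was not in the table. Per kb their median was 0.873, against 1.78 over all listed genes, so the list lay above the typical gene by count and below it by level per kb. The median interval of the list was 77.8 kb, against 22.8 kb over all listed genes. Of the 6 genes, 2 lay above the 50th percentile for length. TDP1 had more counts than TOP2B (79) and TOP3A (32) but a lower level per kb, 1.87 against 3.79 and 9.07. The counts of TOP2B and TOP3A cover only a stretch of each gene, so neither scale compares whole genes.

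Partners of Ki-67 on chromosomes were all listed, with a median of 115 over 7 genes, or 7.82 per kb, and 4 at 100 counts or more. The nucleolar protein genes NCL and NPM1 had 819 and 242 counts, the phosphatase genes PPP1CC and PPP1CB 182 and 115, RRP1B 93, CDCA2 89 and NIFK 78. Other listed genes overlap NCL and PPP1CB and may share their reads. All 7 lay above the 50th percentile for length. Of the 12 microcephaly and centrosome genes related to ASPM, all were listed with a median of 92 and 5 at 100 or more, and a median of 1.79 per kb. KNL1, a kinetochore scaffold, had 504 counts, the cytokinesis kinase gene CIT 425 and CDK5RAP2 416, while CEP135 and KATNA1 were lowest with 23 each. ASPM with 229 counts fell between CDK5RAP2 and MCPH1, which had 193. KNL1 and MCPH1 each overlap another listed gene.

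Genes of CTCF and cohesin, the company in which TOP2B is found on chromatin, had higher counts than TOP2B in 6 of 8 cases but a higher level per kb in 4 of 8. The TOP2B count covers a stretch of that gene, so neither is a comparison of whole genes. The list had a median of 472, or 3.33 per kb, and 6 had 100 counts or more. NIPBL had 831 counts, SMC1A 768, SMC3 658, RAD21 488, STAG1 456 and CTCF 120, against 79 for TOP2B, while STAG2 had 72 and WAPL 20. NIPBL, STAG1, CTCF and STAG2 each overlap another listed gene. Per kb of interval TOP2B, at 3.79, lay below SMC3 at 17.8, RAD21 at 16.9, SMC1A at 15.8 and NIPBL at 4.38. It lay above WAPL at 2.28, CTCF at 1.56, STAG1 at 1.10 and STAG2 at 1.02. Across the members and all 9 lists together, 117 listed genes, MKI67 had the highest count. TOP1 was the ninth at 491 counts and the 19th at 301. Among the genes named from these lists, the intervals of TOP1MT, TDRD3, TOPBP1, RBL2, PPP1CC, PPP1CB, CEP135, STAG2 and WAPL were also shorter than 80% of the RefSeq length.

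**Figure D4:**
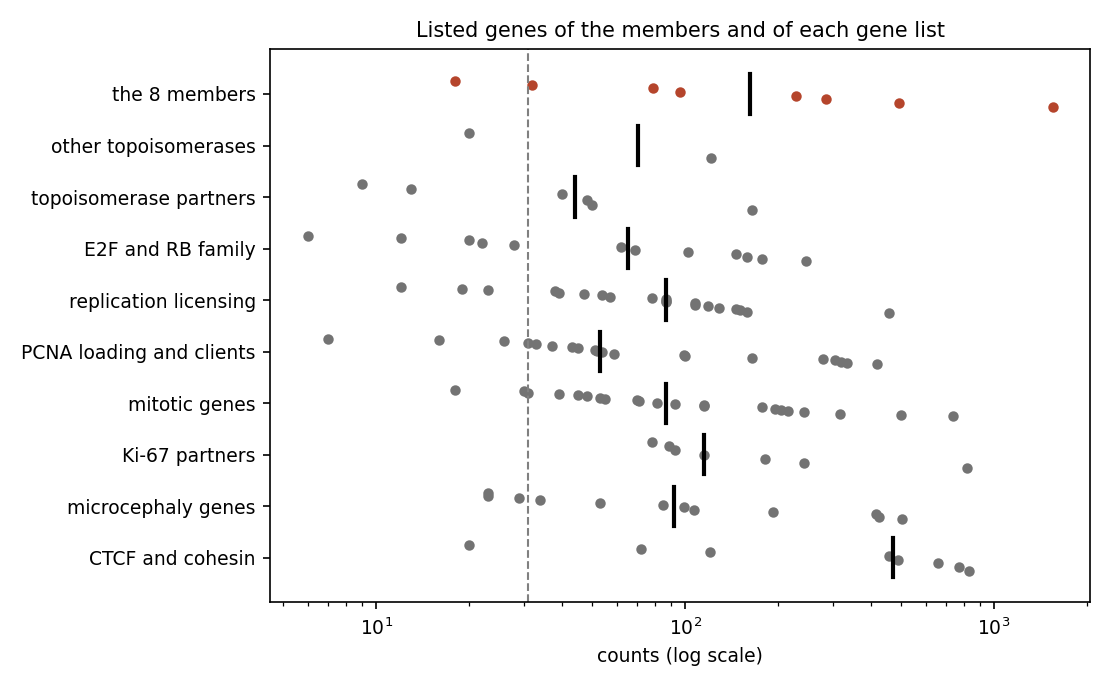
Counts on a log axis for the 8 members (red) and the listed genes of each of the 9 gene lists (grey). Black bars are medians and the dashed line is the median of all listed genes, 31 counts. The list of CTCF and cohesin has the highest median, 472, and MKI67 at 1545 lies above every other gene drawn.

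The protein-coding genes next to the members in the order of counts could be named only where few genes tie, and such likeness is the closeness of 1 count in 1 merged sample. CAMSAP2, a microtubule minus-end gene, was 1 of 2 other protein-coding genes with 491 counts like TOP1. CCDC62 and POLR2A, which encodes the largest subunit of RNA polymerase II, were among 5 others with 285 counts like TOP2A. For ASPM there were 7 others with 229 counts, for PCNA 33 with 96, for TOP2B 41 with 79, for TOP3A 101 with 32 and for E2F1 180 with 18, so no nearest gene could be picked for these.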

How the data were processed

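PAR-CLIP of CTCF was measured in U2OS cells. The labels give 3 samples, of which 1, the merge of 2 replicates, has a processed file with 1 value per gene. The deposited values are whole-number counts per Ensembl gene that the authors did not scale for depth or length. The submitters' processing notes name hg19, Bowtie and bedtools. No version is given, and use of strand, multi-mapping and removal of duplicates are likewise not stated. The lowest count listed is 6 (95% interval 2.20 to 13.1), and 7014 genes overlap another listed gene, which may share reads. The sum of listed counts is not the library size.

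Identifiers were matched to symbols for 16520 of 17201. Length is end minus start as listed. Computed here with Python 3.11.15, pandas 2.3.3 and scipy 1.17.1 were exact 95% Poisson intervals, ratios with exact Clopper-Pearson intervals, counts per kb and mid-rank percentiles in 50 equal length groups, tested on simulated data. No model was fitted. RefSeq lengths (GRCh38.p14) served only to see whether an interval was short. Promoter sequences are RefSeq's.

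The members, the 9 lists and the rules were chosen with earlier results of these data known, and the promoter motifs after the sequences had been displayed. Named genes are the members, overlapping and nearest listed genes, the 3 highest, the lowest and the absent genes of each list (all in lists of 9 or fewer), and the protein-coding genes next in the order of counts where at most 5 others tie, a limit set after the ties were seen. The second nearest neighbours, E2F2, E2F4, E2F5, MCPH1 and the genes of MKI67's length group were named after their values were seen. Alternatives changed the size, the scale, the low-count filter, the length groups and the genes compared.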

Additional observations from a re-analysis of the deposited data

How the results depend on the processing

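Of 59 alternative values, 33 stayed within counting error of the reported value and 26 did not. For ratios of medians that error treats the median as a single count and leaves out the spread between genes, so for them the split is only a rough guide. The ratio of the members' median count to that of all listed genes was 5.24. It was 3.78 against protein-coding genes, 3.99 per kb, 3.96 with genes of 10 counts or more and 3.02 without overlapping genes. In alternatives chosen after seeing the data it was 9.19 over members with a nearly full interval and 3.10 without MKI67. Ranked per kb among all listed genes in place of length groups, the percentile was 97.9 for MKI67, 69.0 for ASPM, 76.2 for TOP1, 86.3 for TOP2A, 69.8 for TOP2B and 85.5 for TOP3A. With 20 length groups or protein-coding genes only, all 8 percentiles stayed within counting error. TOP2A over TOP2B was 2.56 per kb. TOP1 kept 301 counts when those of PLCG1-AS1 were taken off, also chosen after seeing the data.

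Per kb, the ratio of a list's median to that of all listed genes was 1.81 for the other topoisomerases, 0.490 for topoisomerase partners, 0.675 for the E2F and retinoblastoma family, 1.87 for replication licensing, 1.01 for the microcephaly genes and 1.87 for CTCF and cohesin. With genes of 10 counts or more it was 1.72 for the other topoisomerases, 2.12 for replication licensing and for mitotic genes alike, 2.80 for Ki-67 partners, 2.24 for the microcephaly genes and 11.5 for CTCF and cohesin. As counted, these ratios were 2.27, 1.42, 2.11, 2.81, 2.97 and 15.2 for the lists in the order of the first of these sentences, so topoisomerase partners and the E2F family lay above all listed genes by count and below them per kb. They were 2.81 for mitotic genes and 3.71 for Ki-67 partners. The causes of these shifts were not tested.

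The alternative per kb of coding sequence was not run, since coding lengths were not used here. No paired analysis was possible because the deposited values join both replicates, and leaving out a replicate was likewise not run. Counting error limits the placing of E2F1, whose counting interval spans the 21.5 counts of the median in its length group. The same holds for TOP3A, whose counting interval spans the 31 counts of the median over all listed genes. The TOP3A count also covers only a stretch of its gene, and the part of sequencing depth was not tested.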
